A study of Mus musculus with 2 samples.

Results

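The genes described here, chosen with earlier results of these data known, are 47 members of the DNA replication machinery among the 51912 deposited gene rows. They comprise the helicase subunits Mcm2 to Mcm7, 3 GINS subunits, 2 subunits of the origin recognition complex (ORC), 5 licensing and firing factors, 7 polymerase and primase subunits, 3 clamp loader subunits with the clamp Pcna, 2 subunits of replication protein A (RPA), 2 enzymes that mature Okazaki fragments, 4 enzymes of nucleotide synthesis, 6 genes of chromatin, DNA methylation and repair at the fork, and 6 genes encoding E2F factors and E-type cyclins. Each symbol matched 1 row, and all 47 passed the filter of at least 1 CPM on average over the libraries (CPM are counts scaled to library size, here with TMM factors), which left 13015 tested genes.

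The study measured RNA in mouse embryonic fibroblasts (MEFs) on a C57BL/6 background. Both lines were immortalized with SV40 T antigen and infected with Ad-Cre, an adenovirus that delivers Cre recombinase. The line named KS carried Usp16+/+, and the line named UKS is labelled as having lost both floxed Usp16 alleles (Usp16-/-). Each line gave 1 library, and neither its number of embryos nor its clonality is given in the sources used here. The libraries held 26561600 (KS) and 23205734 (UKS) counts after rounding. With 1 library per group no test between the lines was possible and there is no replicate check. Every difference below describes these 2 libraries, and brackets hold exact 95% intervals of the ratio of counts, which cover counting error only. In a bulk sample, a smaller share of cells in S phase and less RNA per cell cannot be told apart.

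Usp16, the deubiquitinase gene that was targeted, had 1195 counts in KS and 459 in UKS, and the exons behind these counts were not examined. All 8 fibroblast markers examined were tested genes, and 6 of them were lower in UKS, among them Thy1 (4424 and 831 counts, log2 ratio −2.20) and Pdgfra (−1.51). Their summed levels were 18455 and 20537 CPM with Fn1, and 9460 and 5955 CPM without it. The part of this difference in the members' values was not tested. Markers of epithelial, blood, endothelial and muscle cells had at most 17 counts each in either library, and Krt5, Cd52 and Myog had none. The 3 neural markers summed to 30.4 and 45.6 CPM. Only Sox2 was higher in UKS (128 and 548 counts), beside Tubb3 (539 and 400) and Map2 (136 and 116). The lines also differed in sex-linked transcripts, with 1 count of Xist in KS and 6998 in UKS and 1511 and 1 counts of the Y-linked Ddx3y. A difference between the embryos of origin and the deletion of Usp16 cannot be told apart.

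DNA replication begins when ORC, CDC6 and CDT1 load the ring of MCM2 to MCM7 onto DNA in G1. The CDC7 kinase with DBF4, cyclin E kinase, CDC45 and GINS then turn the ring into an active helicase, and RPA coats the single strands it exposes. Polymerase alpha-primase starts each strand, RFC loads the PCNA clamp, and polymerases delta and epsilon extend. In fibroblasts many of these genes are driven by E2F factors when the RB proteins release them, and SV40 T antigen is known to inactivate the RB proteins.

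Most of the 47 members stood slightly higher in UKS. As counted, this did not hold for the 57 other replication genes described at the end, of which 24 (42.1%) stood higher. With a trend in transcript length and GC content subtracted, as described below, 33 of these 57 genes stood higher (57.9%, beside 50.6% of all tested genes). On the scale log2((UKS + 1)/(KS + 1)) of CPM, 40 of 47 members (85.1%) had a ratio above 0, beside 51.9% of all tested genes. The median ratio was 0.39 for the members and 0.03 for all tested genes. At least 1.5-fold higher in UKS were 13 members (27.7%), beside 15.4% of all tested genes, and at least 1.5-fold lower were 2 members (4.26%), beside 21.1%. With DESeq2 size factors in place of TMM the first count was 7 (14.9%), beside 14.2% of all tested genes, and with centring on the median of all genes it was also 7, beside 13.9%. No member was at least 2-fold higher (5.81% of all tested genes) and 1, Pola1, was at least 2-fold lower (10.7%). A fold here is a size on the log2 scale and not a test. Small ratios were common to members and other genes, with 32 of 47 members and 8269 of 13015 tested genes within 1.5-fold.

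**Figure D1:**
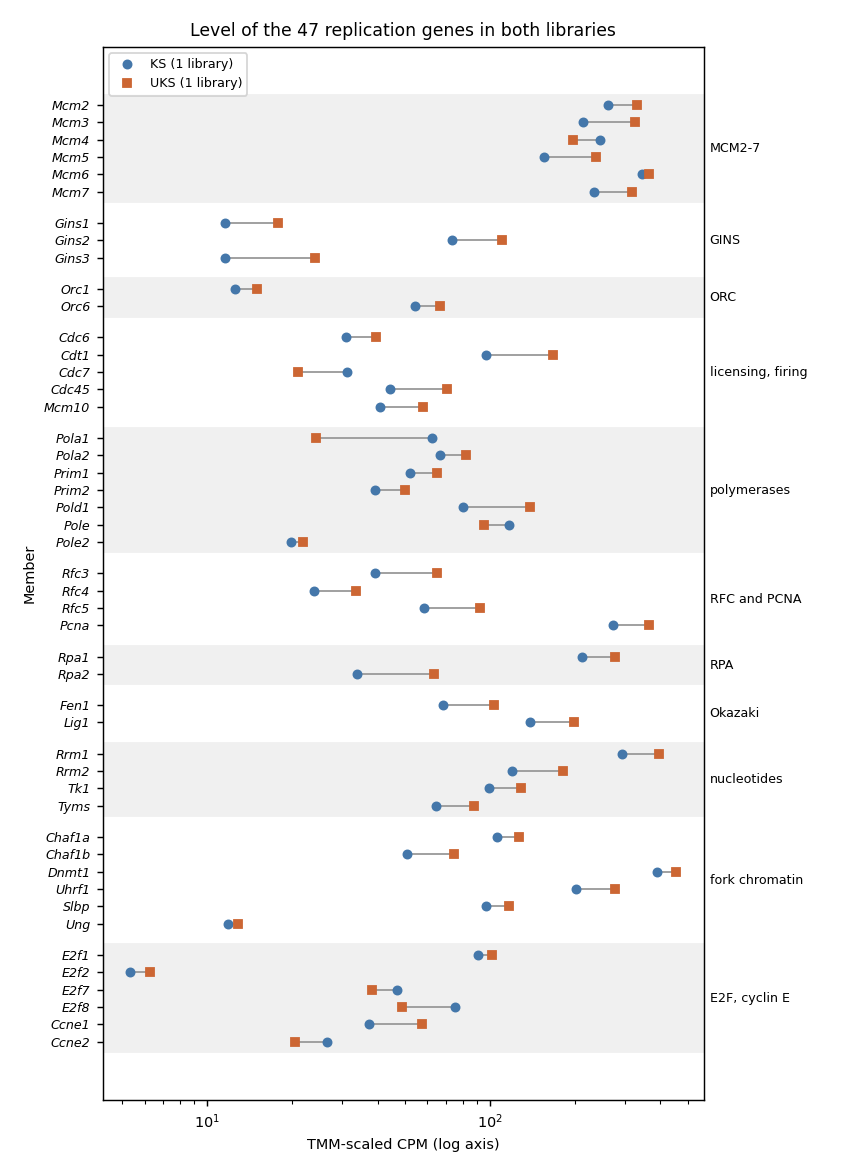
Level of each of the 47 genes in TMM-scaled CPM (log axis) in the KS library (circles) and the UKS library (squares), grouped by complex; each point is 1 library. Squares lie to the right of circles for 40 genes, and the widest gap in the other direction is that of Pola1 (62.1 CPM in KS and 24.3 in UKS).

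Ratios across the transcriptome followed transcript properties, with lower values for long and AT-rich transcripts. Spearman's correlation of the ratio over 12997 genes, which are not independent replicates, was −0.40 with transcript length and 0.52 with GC content. Over the 47 members, which share the same libraries, it was −0.36 with length and 0.23 with GC content. The members were close to other genes in both properties, with a median length of 3006 nt (3158 nt for all tested genes) and a median GC content of 49.4% (49.9%). All 16 members with the shortest transcripts (1087 to 2189 nt) had a ratio above 0, against 10 of the 15 with the longest (3586 to 7163 nt). With the trend in length and GC content subtracted, the members' median was 0.30, and 38 of 47 were above 0 (80.9%), beside 50.6% of all tested genes. Of these, 36 were among the 40 above 0 as counted. On that scale 6 members were at least 1.5-fold higher (12.8% of members and 12.8% of all tested genes) and 2 at least 1.5-fold lower (4.26%, beside 12.1%). The share past 1.5-fold upward thus equalled the background, and 3 of its 6 genes were among the 13 counted before. After subtraction Spearman's correlation of the members' ratios was −0.17 with length and −0.36 with GC content, so among the members the sign of the relation to GC content had turned.

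**Figure D2:**
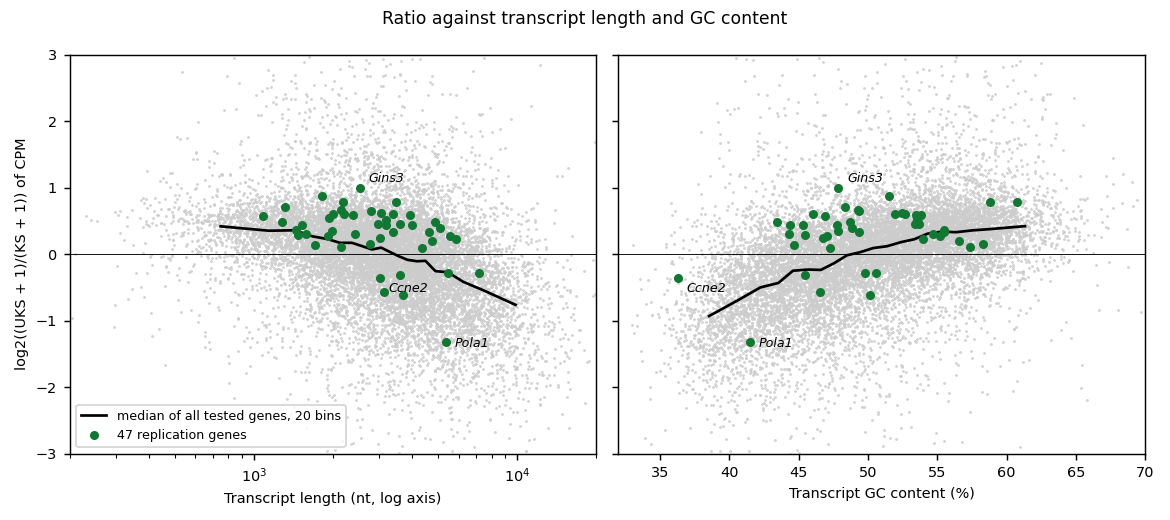
Ratio of UKS over KS, as log2((UKS + 1)/(KS + 1)) of CPM, against transcript length (left, log axis) and GC content (right) for all tested genes (grey), with their median in 20 bins (line) and the 47 replication genes (green). Most green points lie above the line, whereas Pola1 lies below it and Ccne2, at 36.3% GC, is the most AT-rich member.

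Sequences around the starts of the genes were examined because E2F factors are the common regulators of this group. Promoter windows of 300 bases, from 250 before to 50 after the annotated start, came from RefSeq on GRCm38.p6 and were found for 41 members (50 windows). The letters TTTCCCGC, TTTCGCGC, TTTGGCGC and TTTGCCGC, which spell the E2F element, were searched on both strands. They occurred in 17 of the 50 windows (34.0%), beside 2.26% of all 32851 windows, 3.87% of the windows of tested genes and 14 of 54 windows (25.9%) of the other replication genes described at the end. CCAAT, bound by NF-Y and also searched on both strands, occurred in 29 (58.0%), beside 37.4% of all windows. It was in 38.0% of the windows of tested genes and 42.6% of those of the other replication genes. Both motifs were in 12 windows (24.0%), beside 0.96% of all windows, 1.69% for tested genes and 9.26% for the other replication genes. Of the 24 matches of the E2F letters in member windows, 14 lay before the start, 4 of them within 100 bases of it. The E2F letters on opposite strands can overlap, as at Mcm5 and Mcm6, and a match is not evidence of binding.

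The windows of 4 members are shown as the 160 bases before the start, 5′ to 3′ on the gene's strand, with the E2F letters in capitals. Mcm5 and Mcm6 were chosen as subunits of the same ring with overlapping matches, Cdc6 as the loader of that ring and Pola1 as the member with the lowest ratio. Mcm5 lies at chr8:75109349-75109508 (plus strand), Mcm6 at chr1:128359706-128359865 (minus), Cdc6 at chr11:98907991-98908150 (plus) and Pola1 at chrX:93632156-93632315 (minus).
Mcm5: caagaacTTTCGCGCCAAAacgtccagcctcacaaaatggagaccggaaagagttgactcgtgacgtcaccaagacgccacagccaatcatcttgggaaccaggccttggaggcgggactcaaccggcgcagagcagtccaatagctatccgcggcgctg
Mcm6: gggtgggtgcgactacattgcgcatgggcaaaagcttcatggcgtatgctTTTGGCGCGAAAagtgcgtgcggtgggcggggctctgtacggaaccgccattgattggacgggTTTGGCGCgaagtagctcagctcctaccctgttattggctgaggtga
Cdc6: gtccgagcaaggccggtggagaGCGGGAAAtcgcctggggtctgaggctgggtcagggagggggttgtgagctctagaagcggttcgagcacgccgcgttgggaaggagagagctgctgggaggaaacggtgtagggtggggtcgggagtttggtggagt
Pola1: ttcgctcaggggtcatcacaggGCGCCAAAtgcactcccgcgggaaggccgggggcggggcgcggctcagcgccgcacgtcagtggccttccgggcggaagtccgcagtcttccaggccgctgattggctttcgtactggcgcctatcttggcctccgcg

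Mcm6 held 3 matches, the most of any member window. The 17 genes with a match had a median log2 ratio of 0.45 (15 above 0), and the 24 with a window but no match had 0.41 (22 above 0). The genes with a match included both the highest member, Gins3, and the lowest, Pola1. The remaining 6 members, Ccne2, Gins1, Gins2, Mcm4, Pole and Prim2, had no window in the table.

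The origin recognition complex marks the sites where helicases are loaded. Orc1, the subunit whose level changes with the cell cycle, had 330 and 349 counts in KS and UKS (12.5 and 14.9 CPM), 1.20-fold higher [1.03 to 1.39]. Orc6, the smallest subunit, had 1430 and 1553 counts (54.2 and 66.5 CPM) and was 1.23-fold higher [1.14 to 1.32]. Orc2 to Orc5, which form the core of the complex and are not among the 47, pointed the other way or were level. Their log2 ratios were −0.53 for Orc2, −0.63 for Orc3, −0.92 for Orc4 and −0.01 for Orc5. The Orc4 transcript is the most AT-rich of the complex (36.8% GC), and with the trend subtracted its log2 ratio was 0.08, while those of Orc2 and Orc3 were −0.21 and −0.35. Per kb of transcript, Orc1 was the scarcest subunit in both libraries (4.15 CPM per kb in KS and 4.96 in UKS) and Orc6 the most abundant (37.0 and 45.4). Exons of Orc6 share 171 bases with Vps35 on the opposite strand, and counting by strand is not recorded.

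Among the licensing and firing factors, Cdt1 and Cdc45 stood highest in UKS and Cdc7 stood lower. Cdt1, which brings the MCM ring to ORC (chr8:122568015-122573554), had 2546 counts in KS and 3900 in UKS (96.4 and 167 CPM), 1.73-fold higher [1.65 to 1.82]. Its transcript is short and rich in GC, and its log2 ratio of 0.79 was 0.33 with the trend subtracted. Cdc45, which joins the ring to make the active helicase (chr16:18780447-18811987), had 1166 and 1644 counts and was 1.59-fold higher [1.48 to 1.72]. Cdc6, the ATPase that acts with ORC to load the ring, had 818 and 921 counts, 1.27-fold higher [1.16 to 1.40]. Mcm10, needed to activate the helicase, had 1078 and 1346 counts, 1.41-fold higher [1.30 to 1.53]. Its log2 ratio went from 0.49 to 0.67 with the trend subtracted, since its transcript is long (4867 nt).

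Both subunits of the origin-firing kinase were lower in UKS. Cdc7, the catalytic subunit (chr5:106964322-106984432), had 826 counts in KS and 487 in UKS (31.3 and 20.9 CPM), so UKS had 0.67 times the KS level [0.59 to 0.75]. Its activator Dbf4, not among the 47, had 2421 and 1274 counts and was 1.68-fold lower [1.57 to 1.80]. Their log2 ratios were still −0.43 and −0.55 after subtraction of the trend. Cdk2, the kinase partner of cyclin E, was level (1817 and 1572 counts, log2 ratio −0.03).

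Of the 6 MCM subunits 5 stood higher in UKS. Mcm3 (chr1:20802968-20820312) stood at 212 CPM (KS) and 325 CPM (UKS), 1.53-fold higher [1.48 to 1.58]. Mcm5 (chr8:75109569-75128439) had 155 and 237 CPM, 1.52-fold higher [1.46 to 1.59]. Mcm7 was 1.37-fold higher [1.32 to 1.42], Mcm2 1.27-fold [1.23 to 1.31] and Mcm6 1.06-fold [1.03 to 1.10]. The exception was Mcm4 (chr16:15623897-15637400), with 6466 counts in KS and 4571 in UKS (245 and 196 CPM), 1.25-fold lower [1.20 to 1.30]. The ratios of subunits that enter the ring in equal number thus spanned 0.93 on the log2 scale, from Mcm4 to Mcm3. After subtraction of the trend the span was 0.55, and Mcm4 at −0.07 and Mcm2 at 0.08 were both near no difference. On that scale Mcm7 was at 0.22, Mcm6 at 0.30, Mcm3 at 0.42 and Mcm5 at 0.47.

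Per kb of transcript the 6 MCM subunits lay within 1.72-fold of each other in KS and within 1.97-fold in UKS. The scarcest was Mcm5 in KS (46.0 CPM per kb) and Mcm4 in UKS (54.5). In UKS Mcm7 and Mcm3 were the most abundant (both 107), but this order rests on the transcript taken. With the APPRIS principal transcript, which is shorter for Mcm6, that subunit came first in both libraries (118 and 126). The spans were then 2.57-fold in KS and 2.30-fold in UKS, so which line had the wider span also depended on the transcript. Mcm4 starts 466 bases from Prkdc, which is transcribed in the opposite direction. Prkdc, named because of this position after its value was seen, had 1176 counts in KS and 217 in UKS. Its log2 ratio was −2.15 (−0.98 with the trend subtracted). This was the lowest of 5 protein-coding neighbours on the opposite strand that start within 1000 bases before a member's start. Neighbours that start inside a member were left out. The median log2 ratio of these 5 neighbours was −0.004, and 2 were above 0.

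GINS, the 4-subunit companion of the ring, was higher in UKS throughout. Gins1 had 306 counts in KS and 414 in UKS (11.6 and 17.7 CPM), 1.53-fold higher [1.32 to 1.78]. Gins2 had 1930 and 2578 counts (73.1 and 110 CPM), 1.51-fold higher [1.42 to 1.60]. Gins3 (chr8:95633453-95645060) had 304 and 561 counts (11.5 and 24.0 CPM). As a ratio of CPM it was 2.09-fold higher [1.81 to 2.41], but with the pseudocount of 1 CPM it fell just short of 2-fold (log2 0.9998), the highest ratio of the 47. The trend had little bearing on Gins3, whose log2 ratio was 0.98 with it subtracted. Gins4, the subunit not among the 47, was 1.45-fold higher [1.33 to 1.58]. Per kb of transcript Gins3 was the scarcest subunit in both libraries (4.57 and 9.54 CPM per kb) and Gins4 the most abundant (27.2 and 39.4), so the span narrowed from 5.94-fold in KS to 4.13-fold in UKS. Of the Gins2 exons, 2758 bases are shared with Gse1 on the opposite strand (1108 and 1058 counts), and the part of such reads in the Gins2 value was not tested.

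**Figure D3:**
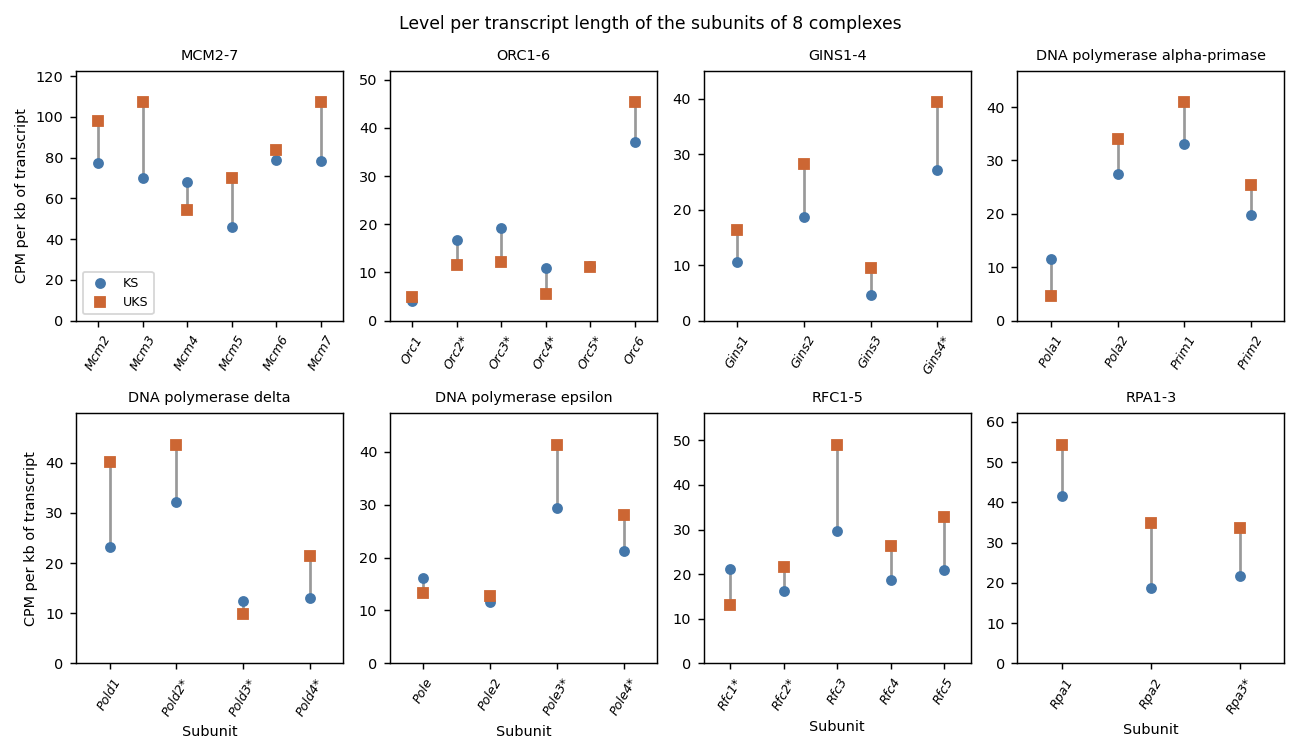
Level of each subunit in CPM per kb of its longest coding transcript in KS (circles) and UKS (squares), 1 library each, for 8 complexes; subunits marked * are not among the 47 members, and the vertical axes differ. All GINS and RPA subunits are higher in UKS, whereas Mcm4, Pola1, Pold3, Pole, Rfc1 and Orc2 to Orc5 are lower.

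Polymerase alpha-primase had the widest range of log2 ratios (1.67) of the 8 complexes plotted. Pola1, its catalytic polymerase subunit (chrX:93304767-93632155), had 1640 counts in KS and 567 in UKS (62.1 and 24.3 CPM), 2.56-fold lower [2.32 to 2.82]. The other 3 subunits were higher as counted. The accessory subunit Pola2 (66.3 and 82.4 CPM) was 1.24-fold higher [1.16 to 1.33]. The primase catalytic subunit Prim1 (52.2 and 64.8 CPM) was 1.24-fold higher [1.15 to 1.34], and the primase regulatory subunit Prim2 (39.1 and 50.1 CPM) 1.28-fold [1.18 to 1.40]. After subtraction of the trend their log2 ratios came apart, with −0.03 for Pola2, 0.42 for Prim1 and 0.27 for Prim2. Per kb of transcript Pola1 was the scarcest in both libraries (11.6 and 4.54 CPM per kb) and Prim1 the most abundant (33.0 and 41.0), a span of 2.84-fold in KS and 9.02-fold in UKS. ORC spanned more on that scale (8.91-fold and 9.15-fold).

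Pola1 combines a long transcript (5346 nt) with low GC content (41.5%), and the fitted trend at these values was −0.72, against its log2 ratio of −1.32. The remaining −0.60 was still past 1.5-fold. Pola1 is also the X-linked member. The 420 tested X-linked genes had a median log2 ratio of −0.29, or −0.07 with the trend subtracted. The part of the difference in sex-linked transcripts in the Pola1 value was not tested.

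The elongating polymerases were divided. Pold1, the catalytic subunit of polymerase delta (chr7:44532746-44548849), had 2115 counts in KS and 3233 in UKS (80.1 and 138 CPM), 1.73-fold higher [1.64 to 1.83]. Its partners Pold2 and Pold4, not among the 47, had log2 ratios of 0.44 and 0.66, and Pold3 had −0.33. Pole, the catalytic subunit of polymerase epsilon and the member with the longest transcript (chr5:110286306-110337474), had 3066 and 2227 counts (116 and 95.4 CPM), or 0.82 times the KS level in UKS [0.78 to 0.87]. After subtraction of the trend its log2 ratio went from −0.28 to 0.02. Pole2, its regulatory subunit, had 520 and 510 counts, and its interval included equal levels (1.11-fold [0.98 to 1.26]). Exons of Pole2 share 245 bases with Gm49384 on the same strand (94 and 98 counts). The part of such reads in the Pole2 value was not tested. The histone-fold subunits Pole3 and Pole4 had log2 ratios of 0.49 and 0.40.

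The clamp and its loader stood higher in UKS apart from the large subunit of the loader. Pcna, the sliding clamp (chr2:132249162-132253314), had 7146 counts in KS and 8525 in UKS (271 and 365 CPM), 1.35-fold higher [1.31 to 1.39]. The small loader subunit Rfc3 had 1035 and 1509 counts (39.2 and 64.6 CPM), 1.65-fold higher [1.52 to 1.79]. Rfc5 was 1.58-fold higher [1.48 to 1.69] and Rfc4 1.41-fold [1.27 to 1.57]. Rfc2, which completes the small subunits, was 1.34-fold higher [1.27 to 1.42]. Rfc1, the large subunit that opens the clamp, had 2658 and 1452 counts, a log2 ratio of −0.69 (−0.38 with the trend subtracted). Per kb of transcript Rfc1 was level with Rfc5 in KS (21.2 and 20.8 CPM per kb) and was the scarcest RFC subunit in UKS (13.1). Exons of Rfc4 and Rfc5 share 194 and 499 bases with Eif4a2 and Wsb2 on the opposite strand.

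RPA and the enzymes that finish Okazaki fragments were higher in UKS. Rpa2, the RPA subunit that is phosphorylated under replication stress (chr4:132768332-132778752), had 896 counts in KS and 1476 in UKS (33.9 and 63.2 CPM), 1.86-fold higher [1.71 to 2.03]. Rpa1, the large DNA-binding subunit, had 210 and 276 CPM and was 1.31-fold higher [1.27 to 1.36]. After subtraction of the trend their log2 ratios were 0.60 and 0.58. Rpa3, not among the 47, was 1.55-fold higher [1.36 to 1.78]. The flap nuclease Fen1 had 68.4 and 103 CPM, 1.51-fold higher [1.42 to 1.61], and DNA ligase 1 (Lig1) 139 and 198 CPM, 1.43-fold higher [1.37 to 1.49]. Their log2 ratios of 0.59 and 0.51 were 0.28 and 0.29 with the trend subtracted. Exons of Fen1 share 1909 bases with Gm10143 on the opposite strand (56 and 67 counts).

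The 4 enzymes of deoxynucleotide supply were all higher in UKS. Ribonucleotide reductase is built from Rrm1 and Rrm2, which had 292 and 395 CPM and 119 and 181 CPM in KS and UKS. Rrm1 (chr7:102441695-102469771) was 1.35-fold higher [1.31 to 1.40] and Rrm2 (chr12:24708241-24714146) 1.52-fold [1.45 to 1.59]. After subtraction of the trend Rrm1 had a log2 ratio of 0.80, the highest after Gins3, and Rrm2 had 0.66. Thymidylate synthase (Tyms) was 1.37-fold higher [1.28 to 1.46]. Thymidine kinase (Tk1) was 1.29-fold higher [1.22 to 1.36], but its short and GC-rich transcript gave a log2 ratio of −0.11 with the trend subtracted.

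At the fork, chromatin and methylation factors were higher in UKS by small amounts. Dnmt1, the maintenance DNA methyltransferase (390 and 455 CPM), was 1.17-fold higher [1.13 to 1.20]. Uhrf1, which guides DNMT1 to newly replicated DNA, was 1.37-fold higher [1.32 to 1.42]. The histone chaperone subunits Chaf1a and Chaf1b were 1.21-fold [1.14 to 1.27] and 1.47-fold higher [1.36 to 1.58]. Exons of Chaf1a share 4648 bases with Ubxn6 on the opposite strand (1644 and 2058 counts). The histone mRNA binding protein Slbp was 1.21-fold higher [1.14 to 1.28]. Ung, which removes uracil from DNA, had 312 and 299 counts, with an interval that included equal levels (1.08-fold [0.92 to 1.27]). With the trend subtracted the log2 ratio was 0.26 for Dnmt1, 0.28 for Uhrf1, 0.24 for Chaf1a and 0.19 for Chaf1b. On that scale Slbp was at 0.23, and the log2 ratio of Ung went from 0.11 to −0.33.

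Of the 6 regulators 3 had a ratio above 0. The activators E2f1 (90.8 and 101 CPM) and E2f2 (141 and 146 counts) were 1.12-fold [1.05 to 1.18] and 1.17-fold higher, and the E2f2 interval [0.92 to 1.49] included equal levels. The atypical E2F factors, which repress E2F targets, were lower in UKS. E2f8 (chr7:48866429-48881596) had 1990 counts in KS and 1139 in UKS (75.4 and 48.8 CPM), 1.55-fold lower [1.44 to 1.66], and its log2 ratio of −0.62 was −0.63 with the trend subtracted. E2f7 had 1232 and 892 counts, 1.22-fold lower [1.12 to 1.33], and its log2 ratio of −0.28 was −0.10 with the trend subtracted. On that scale the activators E2f1 and E2f2 had −0.23 and 0.05. The cyclins that activate CDK2 went opposite ways. Ccne1 had 988 and 1335 counts (37.4 and 57.2 CPM), 1.53-fold higher [1.41 to 1.66]. Ccne2 (chr4:11191351-11204779) had 697 and 477 counts (26.4 and 20.4 CPM), or 0.77 times the KS level in UKS [0.69 to 0.87].

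The direction of Ccne2 depended on the treatment of transcript composition. Its transcript has the lowest GC content of the 47 (36.3%), and its log2 ratio of −0.35 became 0.58 with the trend subtracted. Its exons also share 609 bases with Ints8 on the opposite strand, which had 1492 counts in KS and 705 in UKS. The part of reads from Ints8 in the Ccne2 value was not tested.

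**Figure D4:**
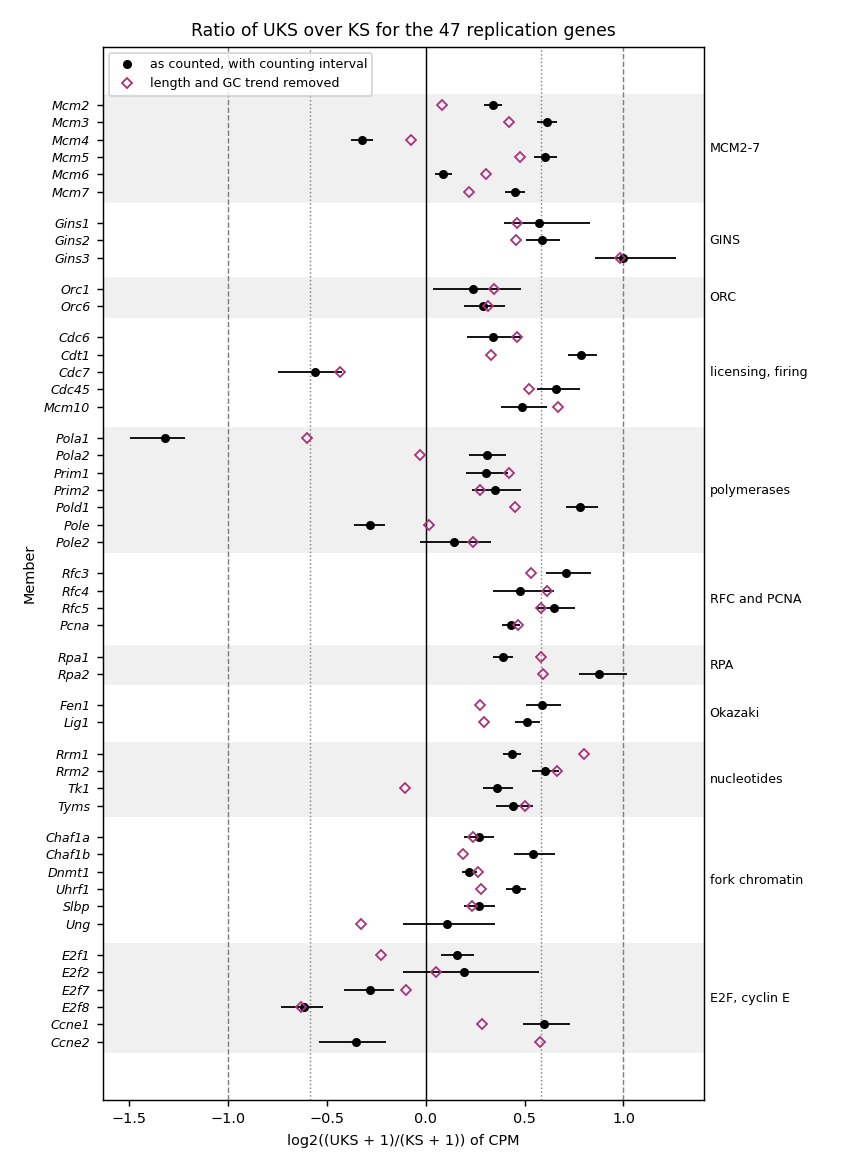
Ratio of UKS over KS for each of the 47 genes as log2((UKS + 1)/(KS + 1)) of CPM (filled points), with the exact 95% counting interval of the CPM ratio (bars), and after subtraction of the length and GC trend (open diamonds); dotted and dashed lines mark 1.5-fold and 2-fold. Gins3 is highest and Pola1 lowest, and the diamonds of Pola2, Pole, Tk1, Ung, E2f1 and Ccne2 lie on the other side of 0 from their points.

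A list of 57 other replication genes, all tested, had a median log2 ratio of −0.05, with 24 above 0 (42.1%, beside 51.9% of all tested genes). In this list 4 genes (7.02%, beside 15.4% of all tested genes) were at least 1.5-fold higher, Rnaseh2c (0.87), Pold4 (0.66), Rpa3 (0.60) and the clamp loader subunit Chtf18 (0.60), and 11 (19.3%, beside 21.1%) were at least 1.5-fold lower. The lowest were Atad5, which unloads PCNA (767 and 247 counts, log2 −1.38), the topoisomerase Top1 (−1.01), Orc4 (−0.92) and the deoxycytidylate deaminase Dctd (−0.86). With the trend subtracted the median of the 57 genes was 0.06, and 33 were above 0 (57.9%, beside 50.6% of all tested genes). Their median length (2931 nt) was near that of the 47 members, and their median GC content was 47.7%. The difference between the lists has no test, and the lists were chosen with earlier results of these data known.

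Mitotic genes act after replication in the cycle. Of 30 such genes 11 had a ratio above 0 (36.7%), with a median log2 ratio of −0.14. None was at least 1.5-fold higher, beside 15.4% of all tested genes, and 10 (33.3%) were at least 1.5-fold lower, beside 21.1%. The lowest were the centromere proteins Cenpf (−2.80) and Cenpe (−2.50), and the highest Pttg1 (0.54) and Cdk1 (0.51). Cenpf and Cenpe have long transcripts (11130 and 7910 nt), and with the trend subtracted their log2 ratios were −1.73 and −1.66. With the trend subtracted the median was −0.11, with 2 genes at least 1.5-fold higher (6.67%, beside 12.8% of all tested genes) and 6 of 30 lower (beside 12.1%). Over these 30 genes the ratio had a Spearman correlation of −0.67 with transcript length, and of −0.41 with the trend subtracted. Both values are given as a description of genes that share the same libraries.

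**Figure D5:**
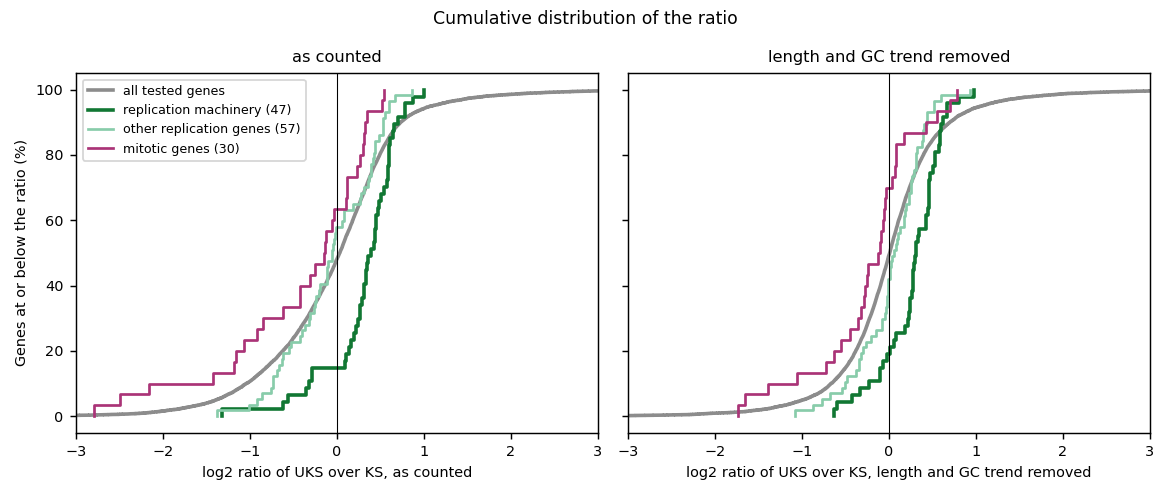
Cumulative share of genes (%) at or below a given log2 ratio of UKS over KS, as counted (left) and with the length and GC trend removed (right), for all tested genes, the 47 members, 57 other replication genes and 30 mitotic genes. The curve of the 47 members lies to the right of that of all tested genes around 0 in both panels, with medians of 0.39 and 0.30.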

How the data were processed

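RNA-seq libraries of 2 mouse fibroblast lines were analysed, 1 per group, grouped by sample title. The labels' protocols give TRIzol extraction of total RNA and an Illumina TruSeq library kit. The submitters' processing notes list HISAT2, StringTie and GRCm38.p5, with no role for each. Which program counted reads, on which annotation and whether by strand is not given in the sources used here. Values in the deposited files are estimated counts (also called expected counts) without depth scaling, and were rounded to whole numbers.

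TMM factors came from edgeR 4.0.16 (R 4.3.3), and the ratio was log2((UKS + 1)/(KS + 1)) of CPM, over genes averaging at least 1 CPM. A single count was worth 0.0379 CPM in KS and 0.0428 in UKS. Intervals are exact conditional binomial (Clopper-Pearson, 95%) from scipy 1.17.1. Coordinates, exon overlaps, transcript length and GC content (longest protein-coding transcript) came from GENCODE M21 on GRCm38. Exon overlaps are named for some members only, and other members, such as Mcm7 and Cdc45, also had them. The trend was fitted by robust regression in statsmodels 0.14.6 (biweight norm, cubic in log2 length and in GC content), without the 47 members and the 57 other replication genes. It treats the whole trend as removable. The steps were tested on simulated data.

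The members and lists were chosen with earlier results of these data known. The text names Usp16, all members, and subunits and kinase partners (Dbf4, Cdk2) completing their complexes. It also names the genes with the highest and lowest ratios of the other lists. Cell type markers, sex-linked genes and genes sharing exon bases with a member are named too, with Prkdc as the exception. A further engineered allele shared by both lines is not reported here. The marker symbol Itgam, on several rows, was left out.

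Alternatives were other scalings (plain totals, upper-quartile factors, DESeq2 1.42.0 size factors), centring, pseudocounts, filters, unrounded counts and removal of the trend.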

Additional observations from a re-analysis of the deposited data

How the results depend on the processing

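The count of 40 members above 0 and the median of 0.39 were kept in direction under all 10 alternatives, with 38 to 40 above 0 and medians of 0.30 to 0.43. Every member kept its sign under 9 alternatives, but these could hardly change it. A pseudocount cannot turn a sign, and the filters moved no member. Other scalings and centring moved the ratios by at most 0.04, less than the ratio nearest 0 (0.09, Mcm6). With the length and GC trend removed, 41 members kept their sign, and Pola2, Pole, Tk1, Ung, E2f1 and Ccne2 did not. In that setting 30 members moved by more than the half-width of their counting interval, by up to 0.93. No member at least 1.5-fold from equal changed sign. Gins3 lies at the 2-fold edge, so the count at least 2-fold higher varied. It was 1 in place of 0 with plain library totals, upper-quartile factors and a pseudocount of 0.25 CPM. Of all tested genes, 5.98%, 6.18% and 7.10% were at least 2-fold higher in these settings, and 5.81% as reported. The count at least 1.5-fold higher was 13 as reported, 7 with DESeq2 size factors, 7 with centring and 6 with the trend removed. The shares of all tested genes were 15.4%, 14.2%, 13.9% and 12.8% in that order. The count at least 1.5-fold lower was 2 as reported (21.1% of all tested genes) and 1 with upper-quartile factors (20.1%). It was 3, with Cdc7 added, with DESeq2 size factors (21.9%) or centring (22.0%). The count at least 2-fold lower was 1 as reported (10.7% of all tested genes). With the trend removed it was 0 (4.94%), and Pola1 stood at −0.60.

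No paired analysis was possible because each group has 1 library, and no fit without a library was run. Depth limited few members, since counts ran from 141 (E2f2 in KS) to 10619 (Dnmt1 in UKS). Intervals of E2f2, Ung and Pole2 included equal levels, and a difference in these was not detectable at this depth. The variation between cultures, which counting intervals do not cover, is unknown.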
